A study of Mus musculus with 6 samples.

Results

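The common gamma chain cytokine receptors were measured as transcripts in mouse helper T cells polarised toward the TH17 fate, in cultures deprived of glutamine and in cultures supplied with it. The genes were taken by symbol: Il2ra, Il2rb, Il2rg, Il4ra, Il7r, Il9r and Il21r, which is 7 genes. Of these, 6 had an array row that names them and no other gene, out of 30663 genes tested, and each of the 6 had a single row. Il2rg, the gene of the shared chain itself, is not analysed here. The 6 arrays comprised 3 from cultures without glutamine and 3 from cultures with it, labelled as biological replicates. All cultures began from sorted naive CD4+ T cells (CD25-negative, CD62L-positive and CD44-negative), so that cells bearing CD25, the protein of Il2ra, were left out at the start. All were stimulated through CD3 and CD28 for 3 days in IMDM with 10% serum, TGF-beta at 1.25 ng/ml, IL-23 and IL-6 at 20 ng/ml each, and blocking antibodies to IL-12, IL-4 and IFN-gamma at 10 ug/ml. The labels do not give the strain, sex or age of the mice, nor whether each replicate had its own donor mouse. The p-values therefore reflect only how far these arrays spread, which may be technical. The comparison asks how the lack of glutamine alters transcript levels in these cells.

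The receptors of this family share the gamma chain, which pairs with ligand-specific chains to bind IL-2, IL-4, IL-7, IL-9, IL-15 and IL-21. The signalling ligand-specific chains carry JAK1 and the gamma chain carries JAK3, and these kinases phosphorylate STAT proteins, chiefly STAT5 after IL-2, IL-7, IL-9 and IL-15, STAT6 after IL-4 and STAT3 after IL-21. In T cells, IL-7 maintains naive and memory cells, IL-2 drives the expansion of activated cells and restrains the TH17 fate, and IL-21 is made by TH17 cells and acts back on them.

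The receptor genes did not move together. Without glutamine Il7r fell strongly, Il2rb fell slightly, Il21r and Il2ra rose slightly, and Il4ra and Il9r did not pass the test (limma, Benjamini-Hochberg adjusted p under 0.05 over all genes). Over all genes 22.3% passed in either direction. Among the receptor genes 2 of 6 rose, where 9.3% of all genes did, and 2 of 6 fell, where 13% of all genes did. Above the median level, where 5 of the 6 lie, 13.7% of genes rose and 24.9% fell. In 4 of the 6 genes no array of one group reached the range of the other, against 43.8% of all genes. The median change of the 6 was 0.13 log2, against 0.060 over all genes. Values are log2 levels as deposited, and every change is a log2 difference, positive where cultures lacking glutamine were higher. Levels of different genes come from different probes and were not compared with each other. The call of Il2ra, and with it the count of 2 rises, was not kept under most alternatives: 1 receptor gene rose when any single array was left out, after quantile normalization and after centring. The rises over all genes numbered 2853 as deposited and 1214 after centring.

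The sequences around the start of transcription are shown for Il7r and Il21r, the receptor genes whose fall and rise passed the test under every alternative setting tried. RefSeq promoter sequences (GRCm38.p6, 250 bases before and 50 after the start, 300 in all) matched 6 of the 7 genes, all but Il2rb. The Il7r window is chr15:9529827-9530126 on the minus strand and the Il21r window is chr7:125603179-125603478 on the plus strand, each written 5′ to 3′ along its gene, with capitals at matches to the motifs described next.
Il7r: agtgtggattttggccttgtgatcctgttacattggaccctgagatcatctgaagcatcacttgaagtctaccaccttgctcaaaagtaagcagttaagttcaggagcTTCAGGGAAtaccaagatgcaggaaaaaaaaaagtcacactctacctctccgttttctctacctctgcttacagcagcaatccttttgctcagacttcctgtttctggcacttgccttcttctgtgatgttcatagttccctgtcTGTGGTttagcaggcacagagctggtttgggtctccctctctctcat
Il21r: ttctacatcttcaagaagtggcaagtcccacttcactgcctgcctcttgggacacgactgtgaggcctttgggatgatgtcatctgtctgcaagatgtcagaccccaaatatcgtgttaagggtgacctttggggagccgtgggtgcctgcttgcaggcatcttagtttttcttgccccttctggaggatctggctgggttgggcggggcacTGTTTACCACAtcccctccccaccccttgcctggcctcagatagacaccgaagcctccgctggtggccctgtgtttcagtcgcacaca
The motifs searched on both strands were TGTGGT for RUNX factors, GTAAACA for FOXO factors, CCGGAAG for GABP, TTCNNNGAA for STAT3 and STAT5, and the STAT6 motif, which has a spacer longer by a base. The Il7r window holds TTCNNNGAA, which reads the same on both strands, at bases 109 to 117, and TGTGGT at bases 254 to 259. The Il21r window holds GTAAACA at bases 213 to 219 and TGTGGT at bases 218 to 223, both on the strand opposite to the gene and overlapping at their ends. TGTGGT is also found in the windows of Il9r (bases 168 to 173), which did not pass the test, and Il2rg (24 to 29). The Il2rg window holds CCGGAAG as well (234 to 240), and the windows of Il2ra and Il4ra hold no match. Of 32851 RefSeq windows of this length, 16.8% hold TGTGGT, 3.65% hold GTAAACA, 8.30% hold TTCNNNGAA, 8.86% hold CCGGAAG and 6.95% hold the STAT6 motif. These matches are a description of letters and were not tested for binding.

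The samples were checked against markers of their own and other cell types. The 7 markers listed for CD4 T cells were bright on every array. They were Cd4 and the general T cell genes Cd3d, Cd3e, Cd3g, Cd5, Cd28 and Thy1. Their mean level was 14.47 to 14.54 without glutamine and 14.37 to 14.49 with it. Cd3d and Cd5 rose and Thy1 fell. B cell (4 of 4 measured) and granulocyte or mast cell markers (4 of 4) lay below the median gene level of 4.68 in both groups, as did 3 and 4 of 4 dendritic markers, 5 and 4 of 5 myeloid markers and 2 and 2 of 3 NK or innate lymphoid markers, without and with glutamine in each case. Lyz2, a myeloid gene, fell to 3.98 to 4.25 without glutamine, against 5.59 to 6.18 with it, and Cd8b1, a CD8 T cell gene, fell by 0.71. S100a8, a granulocyte gene, fell by 0.55 (adjusted p = 0.0330). Sox13, the 1 gamma delta T cell marker of 3 that was measured, rose to 4.56 to 4.67 without glutamine, against 4.35 to 4.41 with it (adjusted p = 0.0458), and lay below the median gene level in both groups. The mean level of the 5 myeloid markers was 3.78 to 3.89 without and 4.10 to 4.22 with glutamine. That of the CD8 markers Cd8a and Cd8b1 was 5.51 to 5.64 without and 5.87 to 6.02 with it. The myeloid markers other than Lyz2 did not pass: Csf1r changed by 0.04, Itgam by 0.01, Adgre1 by 0.06 and Cd14 by -0.01. Nor did Cd8a (-0.05), so both means moved mainly through a single gene. The part of these cells in the results was not tested. In bulk RNA, fewer cells of a type and less RNA per cell cannot be told apart. The median of all rows was 4.33 to 4.38 per array without glutamine and 4.18 to 4.21 with it, so small changes depend on how the arrays are scaled. Quantile normalization placed the median change of all genes at -0.048 and centring of the array medians placed it at -0.095.

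Il7r encodes the alpha chain of the IL-7 receptor, which also serves TSLP together with the protein of Crlf2. It measured 9.77, 10.05 and 10.17 log2 in the 3 cultures without glutamine, against 12.33, 12.93 and 12.56 in the 3 cultures with it. The highest culture without glutamine lay well below the lowest culture with it. The means were 10.00 ± 0.20 without and 12.61 ± 0.30 with glutamine (SD, n = 3 each). Il7r fell by 2.61 on the log2 scale, with a 95% interval of -3.02 to -2.19 and adjusted p = 0.000319 (limma). Of all genes, 2.85% fell by at least 1 log2 and passed the test. Il7r stood among the 60 genes of 30663 with the most negative changes. The deposited scale exceeds 16 on every array, the log2 range of a 16-bit scanner, so log2 differences are not turned into folds.

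**Figure D1:**
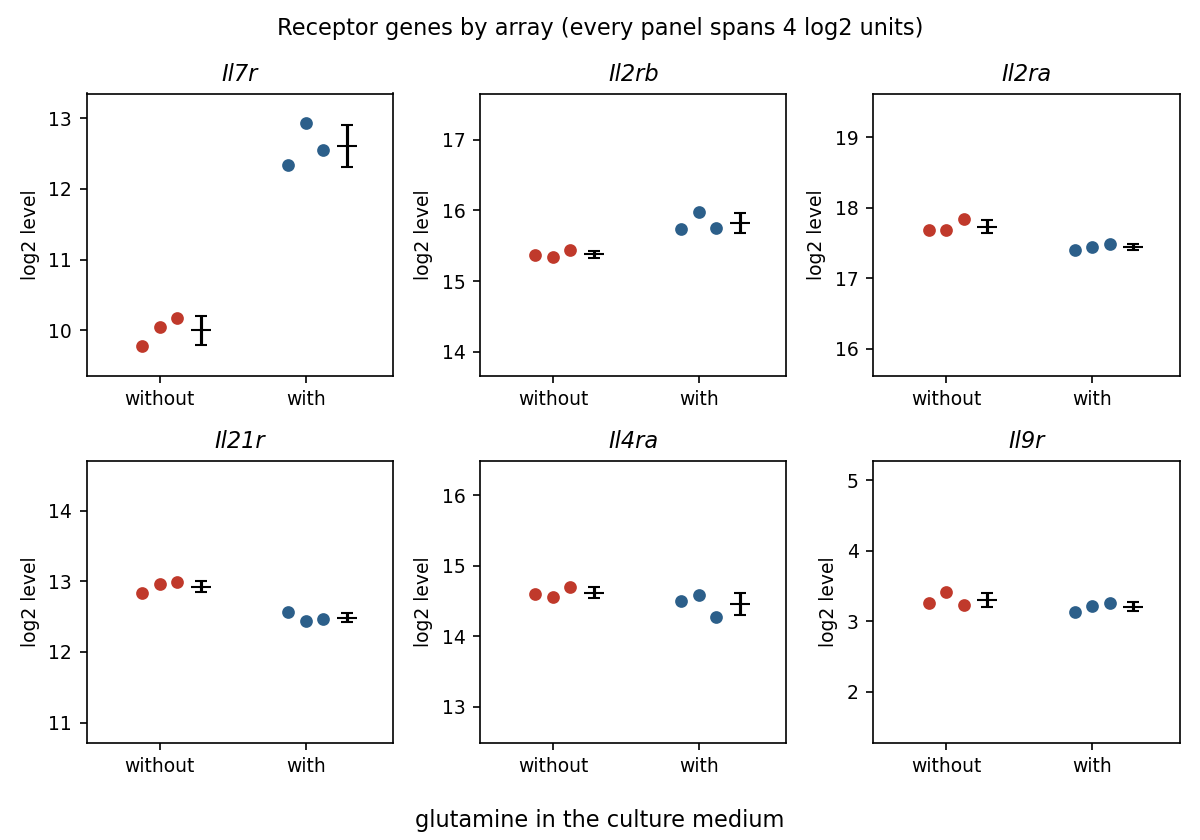
Log2 level of 6 receptor genes on each array; points are arrays (red without glutamine, blue with it), and bars are the mean ± SD of n = 3. Every panel spans the same number of log2 units but starts at a different level. Without glutamine Il7r fell by 2.61 log2, Il2rb, Il2ra and Il21r moved by under 1 log2, and the points of Il4ra and Il9r overlap.

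**Figure D2:**
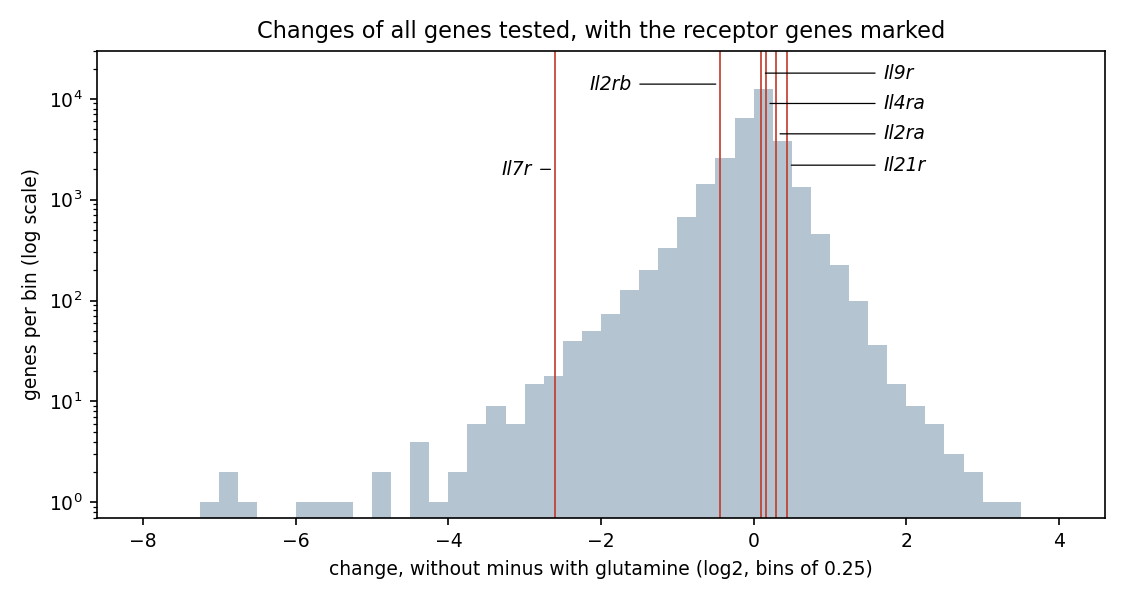
Number of genes per bin of change (log2, without minus with glutamine) on a log axis, for all 30663 genes, with the 6 receptor genes as red lines. Il7r lies in the sparse lower tail at -2.61, while the other 5 lie between -0.44 and 0.44.

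Il2ra and Il2rb encode the chains that join the gamma chain in the IL-2 receptor: the alpha chain CD25 raises the affinity for IL-2, and the beta chain CD122, which IL-15 also uses, passes the signal on. Il2rb measured 15.37, 15.33 and 15.43 without glutamine, against 15.73, 15.98 and 15.75 with it. All 3 cultures without glutamine lay below all 3 with it. Its means were 15.38 ± 0.05 without and 15.82 ± 0.14 with glutamine (SD, n = 3 each). Il2rb fell by 0.44 on the log2 scale, with a 95% interval of -0.65 to -0.23 and adjusted p = 0.0151. The call of Il2rb ended when culture 2 without glutamine was left out (adjusted p = 0.0595) and with an unmoderated statistic (0.0512), and its alternatives ranged from 0.00215 to 0.0595.

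Il2ra measured 17.69, 17.68 and 17.84 without glutamine, against 17.40, 17.44 and 17.48 with it. The groups did not overlap, but the gap between them was narrower than for Il2rb. Its means were 17.73 ± 0.09 without and 17.44 ± 0.04 with glutamine (SD, n = 3 each). The rise was 0.29 on the log2 scale, with a 95% interval of 0.12 to 0.47 and adjusted p = 0.0323. This call was lost in 12 of 15 alternatives, including the omission of any single array (adjusted p 0.0541 to 0.0925). The change was 0.14 after centring and 0.03 after quantile normalization, and adjusted p ranged from 0.0276 to 0.865 over the alternatives. Regulatory T cells carry much CD25 and little of the IL-7 receptor, and Foxp3, their defining gene, is not analysed here because its row names other genes too. Of the 3 other regulatory T cell markers, Ikzf2 (1.49) and Lrrc32 (0.73) rose and Tigit (-0.79) fell, with a mean level of 7.52 to 7.61 without and 6.93 to 7.29 with glutamine. Their part in the changes of Il2ra and Il7r was not tested.

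Il21r encodes the ligand-specific chain of the IL-21 receptor. It measured 12.83, 12.96 and 12.99 without glutamine, against 12.57, 12.44 and 12.46 with it. All 3 cultures without glutamine were higher than all 3 with it. The means were 12.93 ± 0.08 without and 12.49 ± 0.07 with glutamine (SD, n = 3 each). The rise was 0.44 on the log2 scale, with a 95% interval of 0.26 to 0.62 and adjusted p = 0.00921. It remained past the threshold in all 15 alternatives (adjusted p 0.00621 to 0.0404), with a change of 0.32 after quantile normalization and 0.28 after centring.

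Il4ra encodes the alpha chain of the IL-4 receptor, which IL-13 also uses, and is the neighbouring protein coding gene of Il21r. It measured 14.60, 14.55 and 14.70 without glutamine, against 14.50, 14.58 and 14.28 with it. The groups overlapped, since culture 2 with glutamine was above culture 2 without it. The means were 14.62 ± 0.08 without and 14.46 ± 0.16 with glutamine, a change of 0.16 with a 95% interval of -0.08 to 0.40 (adjusted p = 0.285). The change became -0.02 after quantile normalization.

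Il9r encodes the ligand-specific chain of the IL-9 receptor. It measured 3.25, 3.42 and 3.23 without glutamine, against 3.13, 3.22 and 3.26 with it. The groups overlapped, and all 6 values lay below the median gene of their array (4.72 to 4.77 without and 4.62 to 4.65 with glutamine). The change was 0.10 with a 95% interval of -0.09 to 0.29 (adjusted p = 0.415), and -0.06 after centring. No difference in Il9r was detectable at this level.

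**Figure D3:**
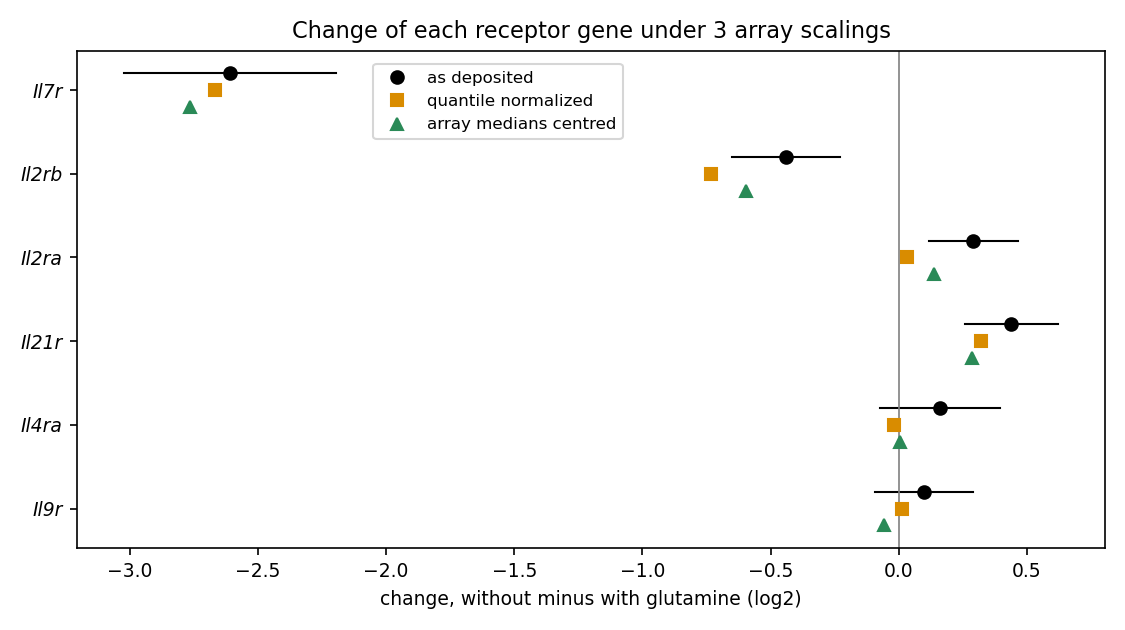
Change of each receptor gene (log2, without minus with glutamine) as deposited (black, with the 95% interval), after quantile normalization (orange) and after centring array medians (green). Il7r and Il2rb stay below 0 and Il21r stays above 0 under all 3, while Il2ra moves from 0.29 as deposited to 0.03 after quantile normalization.

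Most partner chains, like most of all genes, did not pass the test. Over all genes 9.3% rose and 22.3% passed in either direction. Of 4 partner chain genes measured, Crlf2, which encodes the TSLP receptor chain that joins the IL-7 receptor alpha chain, rose, and Il15ra, Il13ra1 and Il13ra2 did not pass. Crlf2 measured 6.61, 6.71 and 6.55 without glutamine, against 6.22, 6.12 and 6.03 with it. The groups did not overlap, and Crlf2 moved in the direction opposite to Il7r (change 0.50, adjusted p = 0.00694, and 0.35 with adjusted p = 0.0595 after quantile normalization, within a range of 0.005 to 0.0595). Il15ra, the IL-15 receptor alpha chain and neighbouring protein coding gene of Il2ra, changed by -0.03 (adjusted p = 0.742). Il13ra1, which joins the IL-4 receptor alpha chain in the receptor for IL-13, changed by -0.32 (0.204), and Il13ra2, a decoy receptor for IL-13, by 0.08 (0.401). Il13ra1 and Il13ra2 lay below the median gene in both groups. The median change of the 4 was 0.025, against 0.060 over all genes.

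Among 8 ligand genes, 1 rose, 2 fell and 5 did not pass, with a median change of 0.057. Over all genes 9.3% rose and 13% fell. Il2, the T cell growth factor, measured 13.80, 13.67 and 13.33 without glutamine, against 14.62, 14.08 and 14.48 with it. All cultures without glutamine were lower, and Il2 fell by 0.79 (adjusted p = 0.0210, 0.0056 to 0.0915 over alternatives). Il21, the ligand of the protein of Il21r, measured 14.82, 14.47 and 14.31 without glutamine, against 14.06, 13.62 and 13.81 with it. All cultures without glutamine were higher, a rise of 0.70 in the same direction as Il21r (adjusted p = 0.0248, 0.0123 to 0.0979 over alternatives). The calls of Il2 and Il21 were each lost on leaving out any 1 of 4 arrays: for Il2 cultures 2 and 3 without and 1 and 3 with glutamine (adjusted p 0.0518 to 0.0628), and for Il21 cultures 1 and 2 without and 2 and 3 with it (0.0555 to 0.0773). Both were also lost with the unmoderated statistic (0.0915 and 0.0979), and Il21 after centring (0.0571). Il13, whose protein shares the IL-4 receptor alpha chain, fell by 0.96 (adjusted p = 0.00381). Il9 was bright in both groups, at 12.24, 12.19 and 12.22 without glutamine and 12.87, 12.19 and 12.63 with it. These ranges meet at culture 2 with glutamine, and the change of -0.34 did not pass (adjusted p = 0.187), although it was -0.53 with adjusted p = 0.0253 once that culture was left out (0.0253 to 0.41 over alternatives). Il4 (change 0.09), Il7 (0.03), Il15 (0.12) and Tslp (0.19) did not pass, and all but Il4 lay below the median gene in both groups.

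The STAT genes measured behind the receptors fell slightly. Of 5 kinase and STAT genes measured, 4 fell and Jak1 did not pass, with a median change of -0.38, against 0.060 over all genes; 13% of all genes fell, and 24.9% of those above the median level. Jak3 is not analysed here because its row also names another gene. Stat6, the factor that acts after IL-4, measured 12.31, 12.28 and 12.20 without glutamine, against 12.94, 12.97 and 12.74 with it. The groups were clearly apart, and Stat6 fell by 0.62, a call kept in every alternative (adjusted p = 0.00397, 0.0015 to 0.0256). Stat3, which acts after IL-6, IL-21 and IL-23 and is required for TH17 cells, measured 12.44, 12.37 and 12.39 without glutamine, against 12.78, 13.19 and 12.84 with it, so that it fell by 0.54 (adjusted p = 0.0197). Stat5a fell by 0.38 (0.0211) and Stat5b by 0.32 (0.0306). The call of Stat5b was lost in 9 of 15 alternatives, among them all rows tested (adjusted p = 0.0527), the replicate block (0.0591) and trend and robust eBayes (0.0595), within a range of 0.00757 to 0.0970. Leaving out culture 1 or 2 without glutamine, or the unmoderated statistic, left 1 of the 4 falls past the threshold, that of Stat6. Leaving out culture 3 without glutamine, or culture 2 or 3 with it, left 2. In 4 of the 5 genes all cultures without glutamine were lower than all with it, where 43.8% of all genes had groups that did not overlap in either direction. Jak1, the kinase carried by the ligand-specific chains, changed by 0.04 (adjusted p = 0.692), and by -0.12 after centring.

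Of 9 adaptor and phosphatase genes, 2 rose, 4 fell and 3 did not pass, with a median change of -0.19. Among all genes above the median level 13.7% rose and 24.9% fell. Gab2, a scaffold that links receptors to PI3 kinase, measured 6.97, 7.02 and 7.31 without glutamine, against 5.69, 5.79 and 5.61 with it. It was higher in every culture without glutamine, a rise of 1.40 (adjusted p = 0.000547). Irs2, the adaptor that binds the IL-4 receptor alpha chain, ran the other way, at 9.62, 10.19 and 10.34 without glutamine, against 11.17, 11.42 and 11.57 with it (change -1.34, adjusted p = 0.00542). Ptpn6 and Ptpn2, phosphatases that dampen JAK and STAT signals, fell by 0.72 (0.00758) and 0.58 (0.00968). The other rise, Ptprc, which encodes CD45 (0.56), and the other fall, Shc1 (-0.39), were named after their values were seen. After quantile normalization 1 rose, Gab2.

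Of 17 genes known to respond to STAT5, 2 rose, 5 fell and 10 did not pass, with a median change of -0.18. These counts are near the shares among all genes above the median level, of which 13.7% rose and 24.9% fell. Gzmb, the granzyme B gene, measured 7.88, 8.75 and 7.73 without glutamine, against 10.43, 10.47 and 9.71 with it. All cultures without glutamine were lower, with a change of -2.08 (adjusted p = 0.00562; the alternatives ran from 0.0023 to 0.0509, the highest being the unmoderated statistic). Lif (-1.77) and Osm (-1.31), which encode cytokines of the IL-6 family, and Pim2 (-1.32), a survival kinase gene, fell too, with adjusted p of 0.00504, 0.00037 and 0.00153. Ccnd3 (-0.35), the fifth fall, and the rises of Lta (0.34) and Cish (0.30) were named after their values were seen; Cish encodes a feedback inhibitor of STAT5 signals. Neither rise passed after quantile normalization, after centring, or without culture 2 of either group. The survival genes Bcl2, Bcl2l1 and Mcl1, also named after their values were seen, did not pass (changes -0.14, 0.22 and 0.05).

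Regulators of Il7r transcription moved in both directions. Of 7 such genes, 3 rose, 2 fell and 2 did not pass, with a median change of 0.28, where 13.7% of genes above the median level rose and 24.9% fell. Foxo1, a known activator of Il7r in T cells, measured 12.78, 12.60 and 13.07 without glutamine, against 11.31, 11.68 and 11.63 with it. Its rise of 1.28 (adjusted p = 0.00225) ran opposite to the fall of Il7r. Foxp1, which opposes Foxo1 at Il7r, measured 11.66, 11.54 and 11.77 without glutamine, against 10.42, 10.41 and 10.82 with it, a rise of 1.11 (0.00222). The groups did not overlap for either gene. Of the RUNX factors, Runx1 rose by 0.66 (0.0102) and Runx3 fell by 0.87 (0.0102), calls lost with the unmoderated statistic (0.0543 and 0.0611). Gabpa, which encodes the DNA-binding subunit of GABP, an activator of Il7r, fell by 0.50 (adjusted p = 0.0059). Gfi1, a repressor of Il7r, and Ets1 did not pass (0.28 and 0.05); these and Gabpa were named after their values were seen. Transcript levels do not give the activity of these factors, and their part in the fall of Il7r was not tested.

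**Figure D4:**
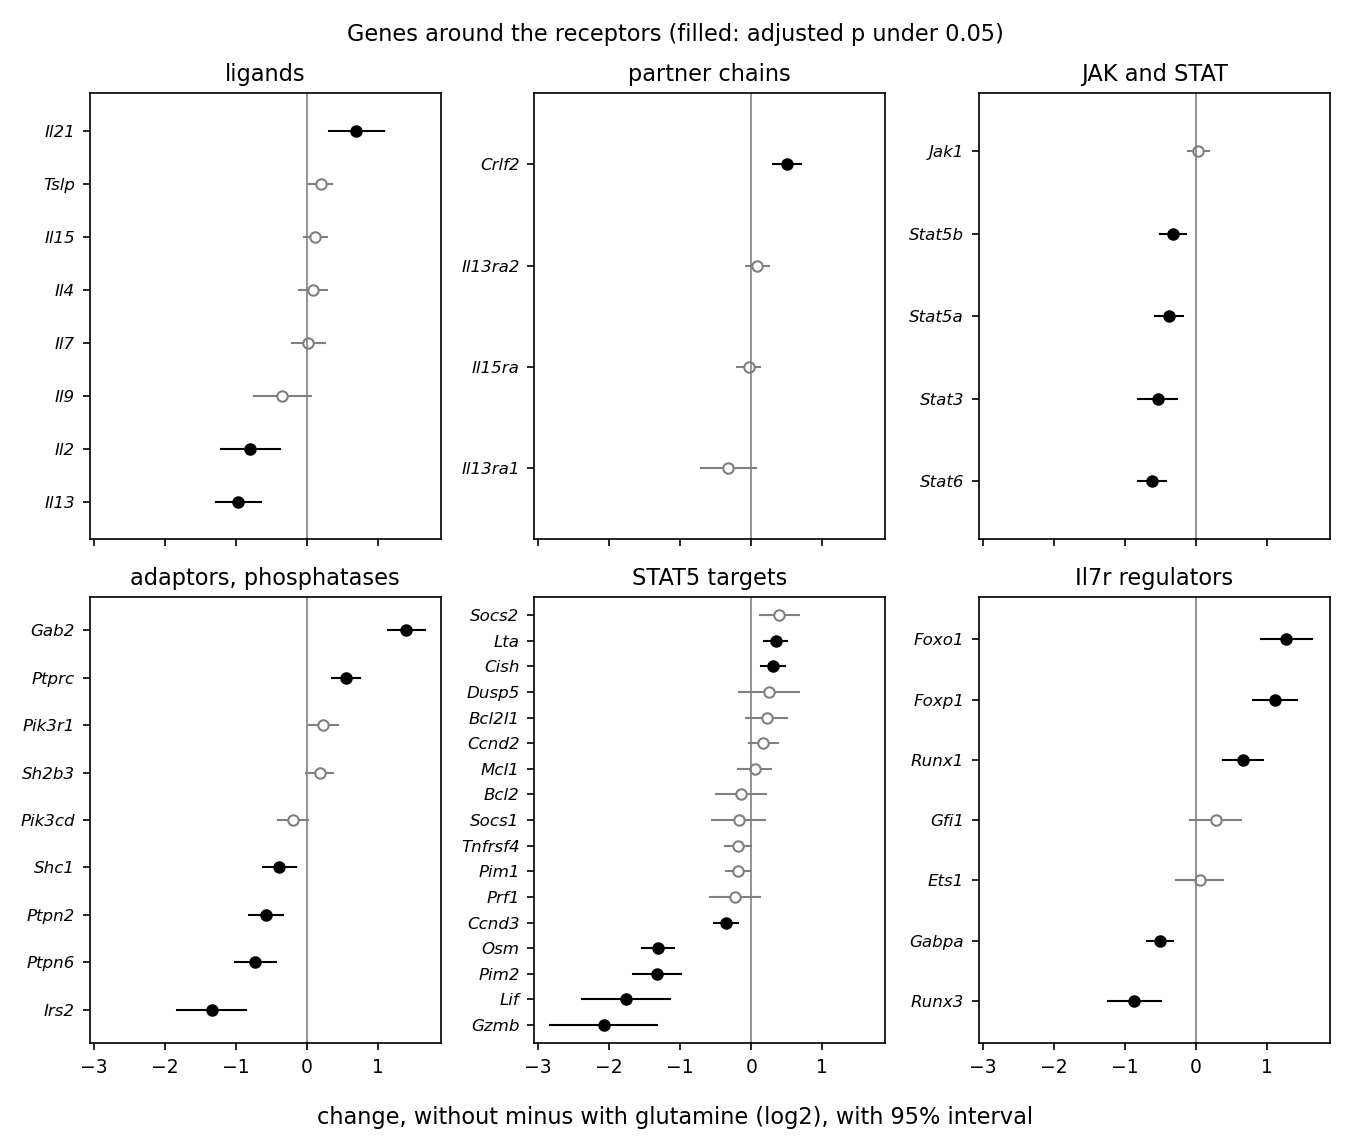
Change of each measured gene around the receptors (log2, without minus with glutamine) with its 95% interval, in 6 groups; filled points passed adjusted p under 0.05. Stat3, Stat5a, Stat5b and Stat6 lie below 0, Il21 and Il2 lie on opposite sides, and Foxo1 and Foxp1 lie above 0.

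The genes with the pattern most like each receptor were found by the root mean square difference between centred values over the 6 arrays; predicted genes and small RNAs were left out. Closest to Il7r were Selp, which encodes P-selectin (difference 0.10 log2), and Elovl6, a fatty acid elongase gene (0.14). Selp measured 5.05, 5.12 and 5.34 without glutamine, against 7.46, 8.04 and 7.49 with it. Like Il7r it peaked in culture 2 with glutamine. Closest to Il2rb were Wwox (0.028) and Rnf125 (0.029), to Il2ra were Nav1 (0.0099) and Klrb1a (0.017), and to Il21r were Gtsf1l (0.035) and Clec2g (0.038). For Il4ra they were Ms4a18 (0.026) and Vmn1r16 (0.031), and for Il9r they were Cilp2 (0.011) and Trim15 (0.017). The matches of Il2ra, Il4ra and Il9r all lay below the median gene on every array. With 6 arrays in 2 groups and 30663 genes, close matches to a small change are plentiful, and the likeness is a description only.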

How the data were processed

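RNA of 6 cultures was hybridised to Affymetrix GeneChip arrays. The deposited values are log2 levels, 1 per row and array. Per the submitters' processing notes the authors used RMA and Transcriptome Analysis Console 4.0; the sources used here give neither its options nor the build. All 6 columns were used as deposited. Of 65956 rows, 31216 were assigned to 1 gene, 1534 name several and 33206 are unnamed here. The 31216 include 612 rows whose platform symbols are all names of 1 RefSeq gene. In rows with a single symbol, 1121 symbols were updated through RefSeq (GRCm38.p6). The brightest row of each symbol was kept, giving 30663 genes with no filter on level. Each gene was tested with limma 3.58.1 (R 4.3.3; lmFit, eBayes, two-sided, no covariate) with Benjamini-Hochberg adjustment over all genes and a threshold of 0.05, and the procedure was tested on simulated data.

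The alternatives were quantile normalization, centring of array medians, genes above the median level, all rows, means over rows, trend and robust eBayes, an unmoderated statistic, array weights, a replicate block, a threshold of 0.01 and omission of each array. The receptor genes and the gene lists were chosen with earlier results of these data known. By rule, the text names all receptor, ligand, partner chain, JAK and STAT genes, up to 4 called genes of each other list by size of change, and the 2 nearest patterns per receptor gene. No pairing of arrays was assumed. Precision is limited by the number of arrays. Plots were made in matplotlib 3.10.9.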

Additional observations from a re-analysis of the deposited data

How the results depend on the processing

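Il7r and Il21r kept direction and call in all 15 alternatives, Il2rb in 13 and Il2ra in 3. Il2ra was not called after quantile normalization (change 0.031), after centring (0.136), or at its deposited change of 0.291 over all rows, with trend and robust eBayes, with the unmoderated statistic and with the replicate block; leaving out 1 array gave changes of 0.241 to 0.318, none called. Il2rb was not called with the unmoderated statistic (-0.441) or without culture 2 of those lacking glutamine; over the omission of 1 array it changed by -0.486 to -0.362. Signs turned for Il4ra after quantile normalization (-0.018) and Il9r after centring (-0.057), both uncalled, and Il9r was not among the genes above the median level. The number of receptor genes higher was 1 after quantile normalization, centring, all rows, trend and robust eBayes, the unmoderated statistic, the replicate block, a threshold of 0.01 and every omission of 1 array (1 to 1), and the number lower was 1 with the unmoderated statistic and at 0.01, and 1 to 2 over omissions.

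Over all genes, 2853 rose and 3986 fell as deposited, 1453 rose after quantile normalization, 1214 rose and 6122 fell after centring, and 1413 rose and 2416 fell with the unmoderated statistic. Omitting 1 array gave 1391 to 2486 rises and 2662 to 4008 falls. Around the receptors, after quantile normalization 0 partner chain genes, 1 adaptor or phosphatase gene and 0 STAT5 target genes rose. After centring 0 ligand genes and 0 STAT5 target genes rose, and with trend and robust eBayes 1 STAT5 target gene rose. With the unmoderated statistic 1 ligand gene, 1 JAK or STAT gene and 1 Il7r regulator gene fell. Over omissions of 1 array, 0 to 1 ligand genes rose and 1 to 3 fell, 1 to 4 JAK or STAT genes fell and 0 to 3 STAT5 target genes rose. The uncalled genes that turned sign were Il4 (-0.103), Il7 (-0.062), Il13ra2 (-0.057) and Jak1 (-0.010) after quantile normalization; Il4 (-0.066), Il7 (-0.130), Il15 (-0.037), Il13ra2 (-0.070) and Jak1 (-0.117) after centring; and Il7 with array weights (-0.0017) and over omissions of 1 array (-0.073 to 0.103). The cause was not tested.

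Deviations from the group means correlated at 0.065, -0.23 and 0.28 between same-numbered arrays, and at -0.33 to 0.30 between differently numbered ones. With 3 arrays per group these values cannot tell whether arrays of the same number share a donor, so pairing remains unknown. The replicate block left Il7r (adjusted p = 0.00184), Il21r (0.0321) and Il2rb (0.0386) called and Il2ra not called (0.0532).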
